A study of Mus musculus with 24 samples.

Results

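The genes described here are 35 targets and regulators of the sterol regulatory element binding proteins (SREBPs), which control cholesterol and fatty acid synthesis. Members were taken from the count tables by gene symbol, from a list of pathway genes, and all 35 were found among the 12759 genes of the series. The list was set by pathway and not by a measured value, but with earlier results of these data known. All 35 also passed the filter on low counts in each of the 15 comparisons. By role, 5 are regulators (Srebf1, Srebf2, Scap, Insig1, Insig2), 8 act in the mevalonate and isoprenoid steps, 12 in the sterol steps and 9 in fatty acid synthesis, and 1 (Stard4) carries sterols.

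SREBPs are made as membrane proteins of the endoplasmic reticulum. Scap, which senses sterols, escorts them to the Golgi when sterols are scarce, and Insig1 and Insig2 hold the complex back when sterols are plentiful. After cleavage in the Golgi the released fragment enters the nucleus and switches on genes of sterol synthesis, mostly through the product of Srebf2, and of fatty acid synthesis, mostly through the product of Srebf1. Growth signalling through mTOR, the kinase that Torin1 inhibits, is known to favour SREBP activity. eIF4E3 belongs to the family of proteins that bind the 5′ cap of mRNAs.

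The cells were N2a, a mouse neuroblastoma line. Control cells (ctrl, labelled WT) had received an empty Cas9 vector, and knockout cells (KO) vectors with guides against 3 exons of Eif4e3 (1, 2 and 4). Both were selected with puromycin, and nothing states that the KO cells are 1 clone. Each received DMSO or Torin1 at 250 nM, and treatment lasted 2 h. RNA-seq was analysed in 12 libraries, 3 for each of the 4 conditions. Ribosome footprints (ribo-seq) were analysed in 11 libraries, with 2 for ctrl DMSO (replicates 1 and 3) and 3 for every other condition; ctrl DMSO replicate 2 was not analysed here.

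Eif4e3 mRNA lay between 12.0 and 18.2 CPM (counts scaled to a common library total) in ctrl libraries and between 2.88 and 5.04 in KO libraries, with no overlap. Libraries held 17047795 to 28910907 RNA-seq counts and 669010 to 5284909 footprints over transcripts found in every table, and ctrl DMSO replicate 3 was the shallowest ribo-seq library. Of 8 neuroblastoma markers, 7 were measured, with a summed mRNA level of 504 to 570 CPM. Their summed footprints were 412 to 459 CPM in KO DMSO and 555 to 581 CPM in ctrl DMSO, without overlap, and the part of this difference in the results was not tested. Fibroblast markers (Dcn and Pdgfra, 2 of 4 measured) summed to 1.26 to 2.71 CPM of mRNA, and the leukocyte marker Cd68 (1 of 4) lay between 1.30 and 4.08. The 35 members together took 0.753% to 1.03% of RNA-seq counts and 0.824% to 0.932% of footprints.

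Per kilobase of coding sequence (CDS), mRNA levels in ctrl DMSO spanned from Fdps, which makes farnesyl diphosphate, at 646 CPM per kb to Insig2 at 13.7. The regulators were spread over this range. Srebf2 had an mRNA level of 196 CPM per kb, Srebf1 of 154, Insig1 of 70.8 and Scap of 58.7. Footprint levels per kb of CDS were 132 for Srebf2, 106 for Srebf1, 133 for Insig1, 24.9 for Insig2 and 17.2 for Scap. Scd2, a stearoyl-CoA desaturase, had the highest footprint level of the 35 at 1520 CPM per kb.

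Torin1 against DMSO asked what 2 h without mTOR activity did to these genes. In ctrl cells the mRNA of 1 of 35 members passed the test (adjusted p under 0.05, edgeR quasi-likelihood test, Benjamini-Hochberg over all transcripts tested), and it fell; 2.73% of 10958 transcripts were called, 0.675% lower and 2.05% higher. This member was Msmo1, a methylsterol oxidase of the sterol steps. Its mRNA was 94.4, 103 and 110.5 CPM in the ctrl DMSO replicates and 58.3, 65.5 and 74.8 CPM in ctrl Torin1. All Torin1 libraries lay under all DMSO libraries. The change was -0.63 on the log2 scale (SE 0.13, adjusted p = 0.021), and the adjusted p reached 0.151 when ctrl DMSO replicate 1 or ctrl Torin1 replicate 1 or 2 was left out. With the replicate number, which the labels tie to a cell passage, as a block, Sqle, the squalene epoxidase, was called as well (-0.46, adjusted p = 0.0119, against 0.0694 without the block). Values are shares of a library, so that a change common to all transcripts is not seen, and in bulk samples fewer cells and less RNA per cell cannot be told apart.

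In KO cells the mRNA of 8 of 35 members (22.9%) fell with Torin1 and that of 0 rose, beside 9.97% of 11004 transcripts called, 3.74% lower and 6.23% higher. Over the 35 members the median log2 change was -0.11, beside 0.00 over all transcripts, and 29 were negative. The 8 were 2 regulators (Scap and Srebf2), 2 of the mevalonate steps (Acat2, which joins acetyl-CoA units, and Hmgcs1, the HMG-CoA synthase), 3 of the sterol steps (Msmo1, Sqle and Dhcr7, a sterol reductase at the end of the pathway) and Fasn, the fatty acid synthase.

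Msmo1 mRNA was 77.5, 97.9 and 105 CPM in KO DMSO and 55.2, 53.9 and 66.5 in KO Torin1 (-0.68, SE 0.12, adjusted p = 0.00434). Fasn mRNA was 1830.0, 1911 and 2070.0 CPM in KO DMSO and 1367, 1185 and 1536 in KO Torin1 (-0.51, SE 0.09, adjusted p = 0.00517). Sqle mRNA was 197, 236 and 229 CPM in KO DMSO and 145, 157 and 175 in KO Torin1 (-0.47, SE 0.09, adjusted p = 0.0075). In none of these did the treated and untreated KO libraries overlap. Scap mRNA was 219.5, 232 and 203 CPM in KO DMSO and 168, 166 and 169 in KO Torin1 (-0.38, SE 0.07, adjusted p = 0.0054). Dhcr7 mRNA was 177, 197 and 180.1 CPM in KO DMSO and 147, 139 and 146 in KO Torin1 (-0.36, SE 0.07, adjusted p = 0.00708). These groups did not overlap either, and the treated Scap libraries lay close together. Hmgcs1 mRNA was 143, 135 and 172 CPM in KO DMSO and 111, 109.6 and 131 in KO Torin1 (-0.36, SE 0.10, adjusted p = 0.0415). Acat2 mRNA was 109, 110.3 and 98.8 CPM in KO DMSO and 89.7, 81.6 and 80.9 in KO Torin1 (-0.33, SE 0.08, adjusted p = 0.0196). Srebf2 mRNA was 694, 686 and 644 CPM in KO DMSO and 606, 547 and 573 in KO Torin1 (-0.23, SE 0.06, adjusted p = 0.045). All treated libraries of these 3 also lay under the untreated ones.

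The number of members called was 4 without KO Torin1 replicate 2 and 13 without KO DMSO replicate 2. The mRNA of Srebf1 (-0.07), Insig1 (0.25) and Insig2 (0.12) did not pass. With the replicate block, Insig1 mRNA was higher (0.24, adjusted p = 0.0444), and Idi1, Scd1 and Scd2 were lower. Whether the ctrl and KO responses differ was tested with a genotype by treatment term over the 12 RNA-seq libraries. It called 0 members and 0% of 11073 transcripts with edgeR, and 0 members with DESeq2. At an unadjusted p under 0.05 it held 0 members and 108 transcripts (0.975%).

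The sterol response element, bound by SREBPs, was searched in RefSeq promoters (GRCm38.p6, 250 bases before to 50 after the gene start, both strands) as TCACNCCAC and as its shorter parts TCACNCCA and CACNCCAC, both contained in it. Promoters of 28 of the 35 members were matched. TCACNCCAC was found in 1 of the 28 and in 1.44% of 27025 genes, TCACNCCA in 3 (10.7%) and 4.97%, and CACNCCAC in 3 (10.7%) and 7.12%. CCAAT, the letters bound by the SREBP partner NF-Y, were in 23 of 28 (82.1%) and in 41.1% of genes. All 6 matches of the sterol element in members are shown, so that the letters behind these counts can be seen, and their relation to the mRNA changes was not tested. Capitals mark the match, which reads on the other strand in the second Acat2 window and in Insig1.
Hmgcs1, chr13:119690204-119690233, plus strand: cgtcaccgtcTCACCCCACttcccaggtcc
Srebf2, chr15:82147096-82147125, plus strand: atgacgcaccaTCACCCCAtgagccgcttc
Msmo1, chr8:64733737-64733766, minus strand: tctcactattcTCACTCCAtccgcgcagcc
Acat2, chr17:12960888-12960917, minus strand: tggatcctccaCACCCCACcctaacccgac
Acat2, chr17:12960760-12960789, minus strand: cgtgaggaggcGTGGCGTGgaggccatagc
Insig1, chr5:28071382-28071411, plus strand: gggcgcggtacgtgtagtgtcGTGGCGTGt
The matches start 137 bases before the RefSeq gene start in Hmgcs1, 162 in Srebf2, 177 in Msmo1, 181 and 53 in Acat2 and 9 in Insig1. The transcripts counted here can start elsewhere, at chr15:82147181 in Srebf2. Those of Msmo1 and Insig1 start at chr8:64733792 and chr5:28071363, so that the matches lie inside them. All matches are of letters in these windows and no measured binding sites.

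In ctrl cells with Torin1 the ribosome footprints of 5 of 35 members (14.3%) fell and those of 0 rose, beside 15.6% of 10693 transcripts called, 9.93% lower and 5.69% higher. The median log2 change was -0.17 over the members and 0.02 over all transcripts. The 5 were Scap, Srebf2, Fasn, Mvd, which decarboxylates mevalonate diphosphate, and Fads1, a desaturase of polyunsaturated fatty acids.

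Scap lies at chr9:110333356-110384950 on GRCm38, on the plus strand, and its transcript has 23 exons. Its footprints were 70.2 and 61.5 CPM in ctrl DMSO and 21.7, 16.6 and 19.9 in ctrl Torin1. All treated libraries were far under both untreated ones, and the change was -1.81 (SE 0.21, adjusted p = 6.02e-06), which is 3.51-fold lower. The counts behind these levels were 293 and 38 footprints in ctrl DMSO and 30, 36 and 35 in ctrl Torin1.

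Srebf2 (chr15:82147181-82205379, plus strand, 19 exons) had footprints of 494 and 403 CPM in ctrl DMSO and 281, 238 and 268 in ctrl Torin1 (-0.79, SE 0.15, adjusted p = 0.000995). Fasn (chr11:120805846-120824547, minus strand, 43 exons) had 839 and 981 CPM in ctrl DMSO and 443, 464 and 527 in ctrl Torin1 (-0.92, SE 0.14, adjusted p = 0.000131). In neither gene did treated and untreated libraries overlap. Mvd footprints were 93.9 and 59.9 CPM in ctrl DMSO and 44.1, 52.7 and 43.1 in ctrl Torin1 (-0.81, SE 0.20, adjusted p = 0.00854). Fads1 footprints were 203 and 162 CPM in ctrl DMSO and 142, 102 and 137 in ctrl Torin1 (-0.56, SE 0.17, adjusted p = 0.0294). These also did not overlap, but the call for Mvd was lost without ctrl DMSO replicate 1 or ctrl Torin1 replicate 3 (adjusted p up to 0.559), and that for Fads1 without either of these or ctrl Torin1 replicate 2 (up to 0.386) and with the replicate block (-0.40, adjusted p = 0.0515). Fdft1, the squalene synthase, was called with the block (-0.38, adjusted p = 0.0449, against 0.0507 without it). Srebf1 (-0.35, adjusted p = 0.131), Insig1 (-0.16) and Insig2 (0.61) did not pass. Leaving out ctrl Torin1 replicate 3 gave 3 members, and leaving out ctrl DMSO replicate 3 gave 8; without a ctrl DMSO replicate that arm is 1 library, assumed to vary like the ctrl Torin1 libraries. Without TMM scaling, which sets libraries to a common level through the bulk of transcripts, 4 members were lower and 3 higher (Insig2, Idi1 and Stard4). Fads1 was not called in that setting. Of all 10693 transcripts, 684 were lower and 1691 higher in it.

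In KO cells with Torin1 the footprints of 19 of 35 members (54.3%) fell and those of 2 rose, beside 40.6% of 10822 transcripts called, 22.1% lower and 18.5% higher. The median log2 change was -0.34 over the members and 0.02 over all transcripts. Of the regulators 3 of 5 fell (Srebf1, Srebf2 and Scap), of the mevalonate and isoprenoid steps 3 of 8 fell and 1 rose, of the sterol steps 9 of 12 fell, and of fatty acid synthesis 4 of 9. Stard4 and Ggps1, which makes geranylgeranyl diphosphate, rose. Without TMM scaling 10 members were lower and 6 higher, beside 1532 and 3766 of 10822 transcripts. That setting moved the median of all transcripts to 0.26 in KO and 0.23 in ctrl.

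Srebf2 footprints were 388, 378 and 397 CPM in KO DMSO and 94.8, 98.7 and 124 in KO Torin1. The change of -1.90 (SE 0.12, adjusted p = 1.52e-14) is 3.73-fold lower, and the groups lay far apart. Srebf1 (chr11:60199089-60220604, minus strand, 19 exons) had footprints of 336, 396 and 434 CPM in KO DMSO and 145, 172 and 172 in KO Torin1 (-1.27, SE 0.12, adjusted p = 1.68e-10), which is 2.41-fold lower. Scap footprints were 38.3, 45.6 and 49.0 CPM in KO DMSO and 4.85, 5.27 and 12.0 in KO Torin1. The change of -2.66 (SE 0.24, adjusted p = 1.13e-10) is 6.32-fold lower and rests on 97, 218 and 141 footprints against 11, 11 and 21. Insig1 (-0.17) and Insig2 (0.14), the proteins that retain Scap, did not pass.

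Fasn footprints were 864, 944 and 1068 CPM in KO DMSO and 299.7, 318 and 344 in KO Torin1 (-1.60, SE 0.11, adjusted p = 1.06e-13). Fads1 footprints were 201, 204 and 204 CPM in KO DMSO and 97.8, 104 and 99.4 in KO Torin1 (-1.03, SE 0.12, adjusted p = 1e-08). Dhcr7 footprints were 326, 334 and 363 CPM in KO DMSO and 185, 162 and 174 in KO Torin1 (-0.99, SE 0.11, adjusted p = 1.02e-08). Each of these 3 enzymes had every treated library under every untreated one. Ebp, a sterol isomerase, had footprints of 75.9, 69.5 and 90.6 CPM in KO DMSO and 53.3, 35.9 and 45.7 in KO Torin1 (-0.81, SE 0.16, adjusted p = 8.65e-05). Tm7sf2, a sterol reductase, had 26.9, 20.9 and 20.1 CPM in KO DMSO and 13.2, 8.14 and 6.86 in KO Torin1 (-1.24, SE 0.25, adjusted p = 0.000215). Neither overlapped.

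The other 11 that fell did so by 0.29 to 0.76 on the log2 scale. They were Fads2, a further polyunsaturated fatty acid desaturase (-0.53), Mvd (-0.72), Mvk, the mevalonate kinase (-0.76), Fdps (-0.45), Acss2, an acetyl-CoA synthetase (-0.51), and Fdft1 (-0.35). From the sterol steps came Msmo1 (-0.37), the steroid reductase Hsd17b7 (-0.48), the lanosterol demethylase Cyp51 (-0.34), the sterol decarboxylase Nsdhl (-0.36) and the sterol reductase Lbr (-0.29). Fdft1 alone of the 19 had overlapping libraries. The same libraries gave the calls, so separate groups add no further support. How many of all transcripts had separate groups was not counted. Among the 11, 4 of 6 left-out libraries ended the call for Mvk, 3 those for Fdft1 and Nsdhl, and 2 those for Cyp51 and Lbr. For Msmo1 and Hsd17b7 it was 1 each, and Mvd, Fdps, Acss2 and Fads2 were kept in every leave-out. DESeq2 did not call Mvk or Fdft1. Without TMM scaling the calls for Mvk, Fdft1, Nsdhl, Cyp51, Lbr, Msmo1, Hsd17b7, Fdps and Acss2 were lost. Those for Mvd and Fads2 were kept. Stard4 footprints were 76.7, 64.9 and 65.3 CPM in KO DMSO and 115, 79.0 and 85.7 in KO Torin1 (0.43, SE 0.14, adjusted p = 0.0174). Ggps1 footprints were 19.8, 21.8 and 23.6 CPM in KO DMSO and 34.4, 24.9 and 33.7 in KO Torin1 (0.49, SE 0.19, adjusted p = 0.0375). Both rose without overlap. The call for Stard4 was lost without KO DMSO replicate 2 or KO Torin1 replicate 1 (adjusted p up to 0.234), and that for Ggps1 without KO DMSO replicate 1 or 2 or KO Torin1 replicate 1 or 3 (up to 0.165) and with DESeq2 (adjusted p = 0.0837). With an offset for CDS GC content, chosen after seeing the data, neither was called (Stard4 0.20, adjusted p = 0.286; Ggps1 0.12, 0.655). Mvk was not called with this offset either. The count of members called was 14 without KO DMSO replicate 2, and with the replicate block Acly, the ATP citrate lyase, was called as well (-0.22, adjusted p = 0.0466).

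**Figure D1:**
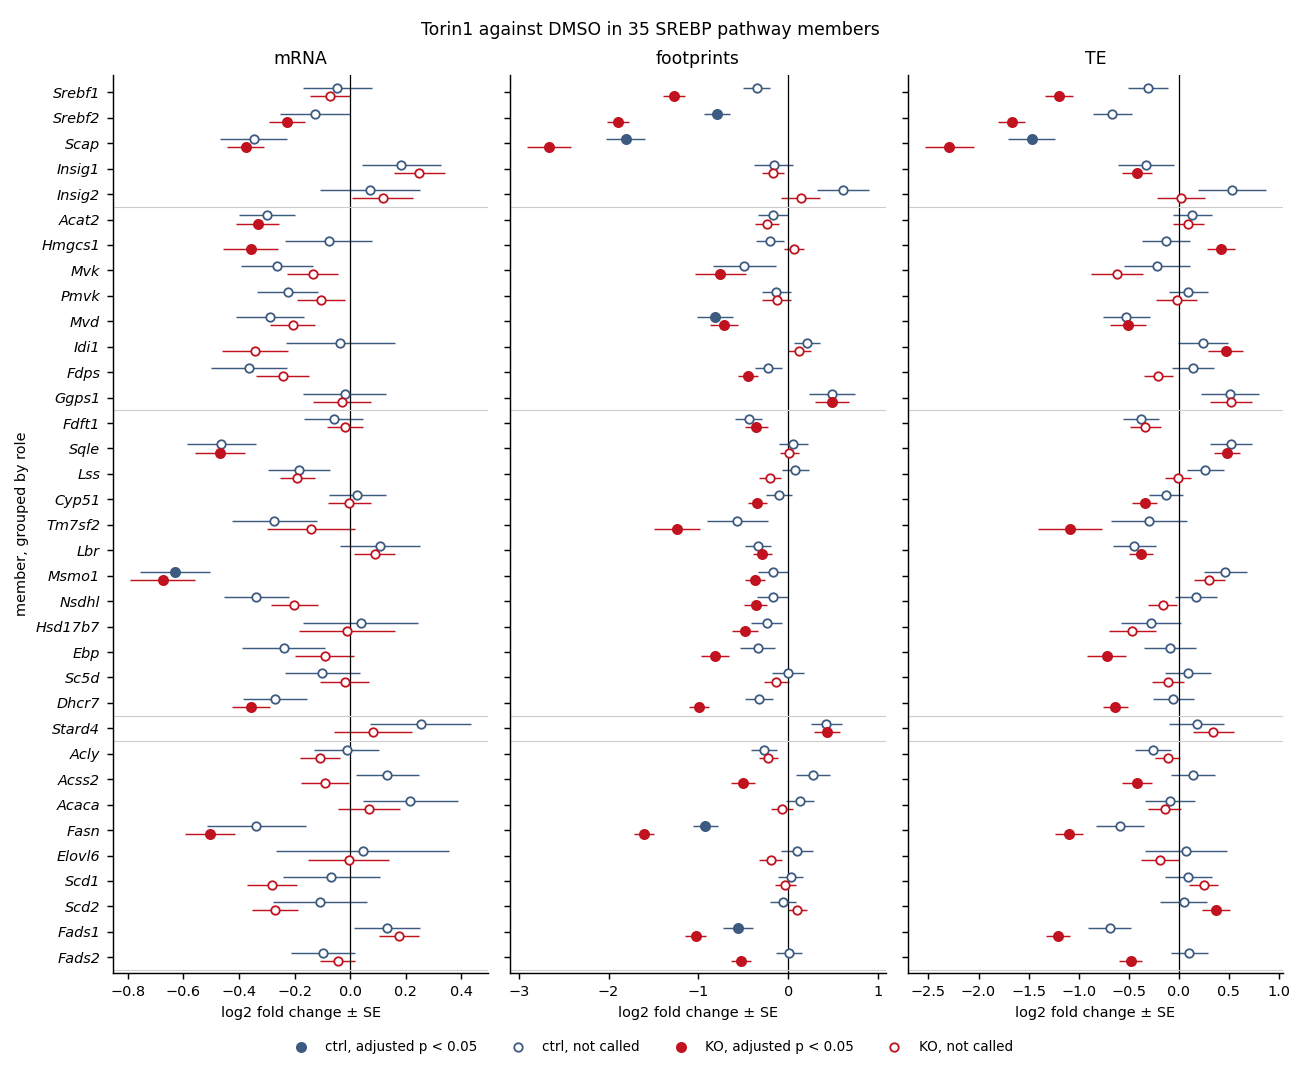
Log2 fold change of Torin1 against DMSO for the 35 members, with mRNA, footprints and translation efficiency (TE) in separate panels, ctrl in blue and KO in red, bars showing 1 SE and filled points an adjusted p under 0.05. In footprints 5 points are filled for ctrl and 21 for KO, and Scap, Srebf2 and Fasn lie farthest to the left in KO.

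KO against ctrl compared the same genes between cells transfected and selected separately. Effects of eIF4E3 loss and other differences between these cells cannot be told apart. In DMSO the mRNA of 0 of 35 members passed with edgeR, beside 0.0183% of 10924 transcripts (0.00915% lower and 0.00915% higher), and 0 members passed with DESeq2. At an unadjusted p under 0.05 there were 3 members (8.57%) and 646 transcripts (5.91%). These 3 were Pmvk, the phosphomevalonate kinase (-0.38, adjusted p = 0.683), Ebp (-0.41) and Fdps (-0.38). With the replicate block all 3 were lower in KO (Fdps -0.37, adjusted p = 0.00639; Pmvk -0.37, 0.0137; Ebp -0.41, 0.0188), and 866 transcripts were called. Pmvk mRNA was 114, 126 and 104 CPM in ctrl DMSO and 85.8, 96.2 and 81.6 in KO DMSO, without overlap. The mRNA differences of the regulators were between -0.04 and 0.17.

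Footprints in DMSO also gave 0 of 35 members, beside 0.0279% of 10757 transcripts with edgeR (0.0186% lower and 0.0093% higher), and 0 members with DESeq2. At an unadjusted p under 0.05 there were 3 members (8.57%) and 850 transcripts (7.9%). Scap was lower in KO (-0.60, SE 0.18, adjusted p = 0.501), with 70.2 and 61.5 CPM in ctrl and 38.3, 45.6 and 49.0 in KO, which did not overlap. Nsdhl (0.48) and Acss2 (0.44) were the other two. Srebf2 (-0.23), Srebf1 (0.09), Insig1 (0.06) and Insig2 (0.38) did not pass, although all Srebf2 KO libraries lay under both ctrl libraries.

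In Torin1 the mRNA of 3 of 35 members (8.57%) was lower in KO and that of 0 was higher, beside 1.96% of 11007 transcripts called, 0.954% lower and 1.01% higher. Fdps mRNA was 529, 513 and 558 CPM in ctrl Torin1 and 450.1, 451 and 430.5 in KO Torin1 (-0.26, SE 0.05, adjusted p = 0.0166). Dhcr7 mRNA was 168, 167 and 175 CPM in ctrl Torin1 and 147, 139 and 146 in KO Torin1 (-0.24, SE 0.05, adjusted p = 0.0283). Pmvk mRNA was 97.3, 95.1 and 101 CPM in ctrl Torin1 and 75.6, 84.2 and 84.8 in KO Torin1 (-0.26, SE 0.06, adjusted p = 0.0464). All KO libraries lay under all ctrl libraries for these 3 genes. The count was 0 when ctrl Torin1 replicate 3, KO Torin1 replicate 2 or KO Torin1 replicate 3 was left out, and 9 with the replicate block, which added Fdft1, Lss, Mvd, Ebp, Acat2 and Fasn, all lower (1041 transcripts called). The mRNA of the 5 regulators differed by -0.08 to 0.21 and did not pass.

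Footprints of 5 of 35 members (14.3%) were lower in KO than in ctrl with Torin1, and those of 0 were higher, beside 6.03% of 10792 transcripts called, 4.01% lower and 2.02% higher. They were Srebf2, Srebf1, Scap, Fasn and Dhcr7. The median log2 difference was -0.07 over the members and 0.00 over all transcripts, and 24 members were negative. By role 3 of 5 regulators, 1 of 12 sterol genes, 1 of 9 fatty acid genes and 0 of 8 mevalonate and isoprenoid genes were lower.

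Srebf2 footprints were 281, 238 and 268 CPM in ctrl Torin1 and 94.8, 98.7 and 124 in KO Torin1. The difference of -1.31 (SE 0.12, adjusted p = 5.03e-10), 2.49-fold lower, had the smallest p of all 10792 transcripts, while Srebf2 mRNA was 607, 596 and 624 CPM in ctrl Torin1 and 606, 547 and 573 in KO Torin1. The footprint libraries were well apart and the mRNA libraries overlapped. Srebf1 footprints were 267, 274 and 316 CPM in ctrl Torin1 and 145, 172 and 172 in KO Torin1 (-0.81, SE 0.11, adjusted p = 2.78e-06, rank 19 by p). Srebf1 mRNA was 491, 506 and 529 CPM in ctrl Torin1 and 507, 527 and 497 in KO Torin1. Here too only the footprints of the 2 genotypes were separate. Scap footprints were 21.7, 16.6 and 19.9 CPM in ctrl Torin1 and 4.85, 5.27 and 12.0 in KO Torin1 (-1.42, SE 0.32, adjusted p = 0.00381), on 30, 36 and 35 against 11, 11 and 21 footprints. Scap mRNA was 179.5, 179 and 172 CPM in ctrl Torin1 and 168, 166 and 169 in KO Torin1, lower in every KO library but not called (-0.07).

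Fasn footprints were 443, 464 and 527 CPM in ctrl Torin1 and 299.7, 318 and 344 in KO Torin1 (-0.58, SE 0.10, adjusted p = 0.000246). Dhcr7 footprints were 256, 231 and 191 CPM in ctrl Torin1 and 185, 162 and 174 in KO Torin1 (-0.38, SE 0.11, adjusted p = 0.0377). Neither overlapped, although the highest Dhcr7 KO library came close to the lowest ctrl library. The call for Dhcr7 was lost without ctrl Torin1 replicate 1 or 2 or KO Torin1 replicate 2 or 3 (adjusted p up to 0.196). The calls for Srebf1, Srebf2, Scap and Fasn were kept whichever library was left out. Insig1 (0.07) and Insig2 (-0.08) did not pass. With the replicate block Lss, the lanosterol synthase (-0.34, adjusted p = 0.0315), and Cyp51 (-0.29, adjusted p = 0.0379) were also lower.

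**Figure D2:**
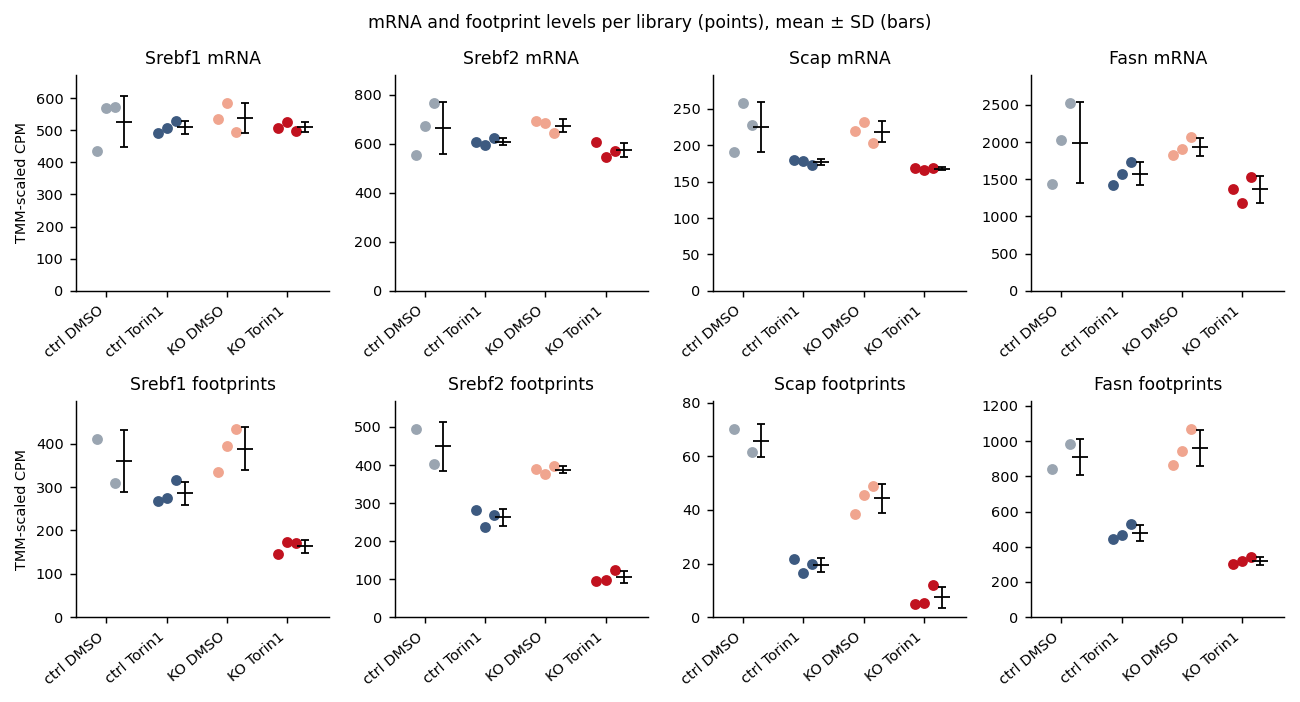
TMM-scaled CPM of Srebf1, Srebf2, Scap and Fasn in each library (points) with mean and SD (bars), mRNA in the upper row and footprints in the lower. KO Torin1 footprints lie under every other library for all 4 genes, while the mRNA of Srebf1 overlaps between all conditions.

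**Figure D3:**
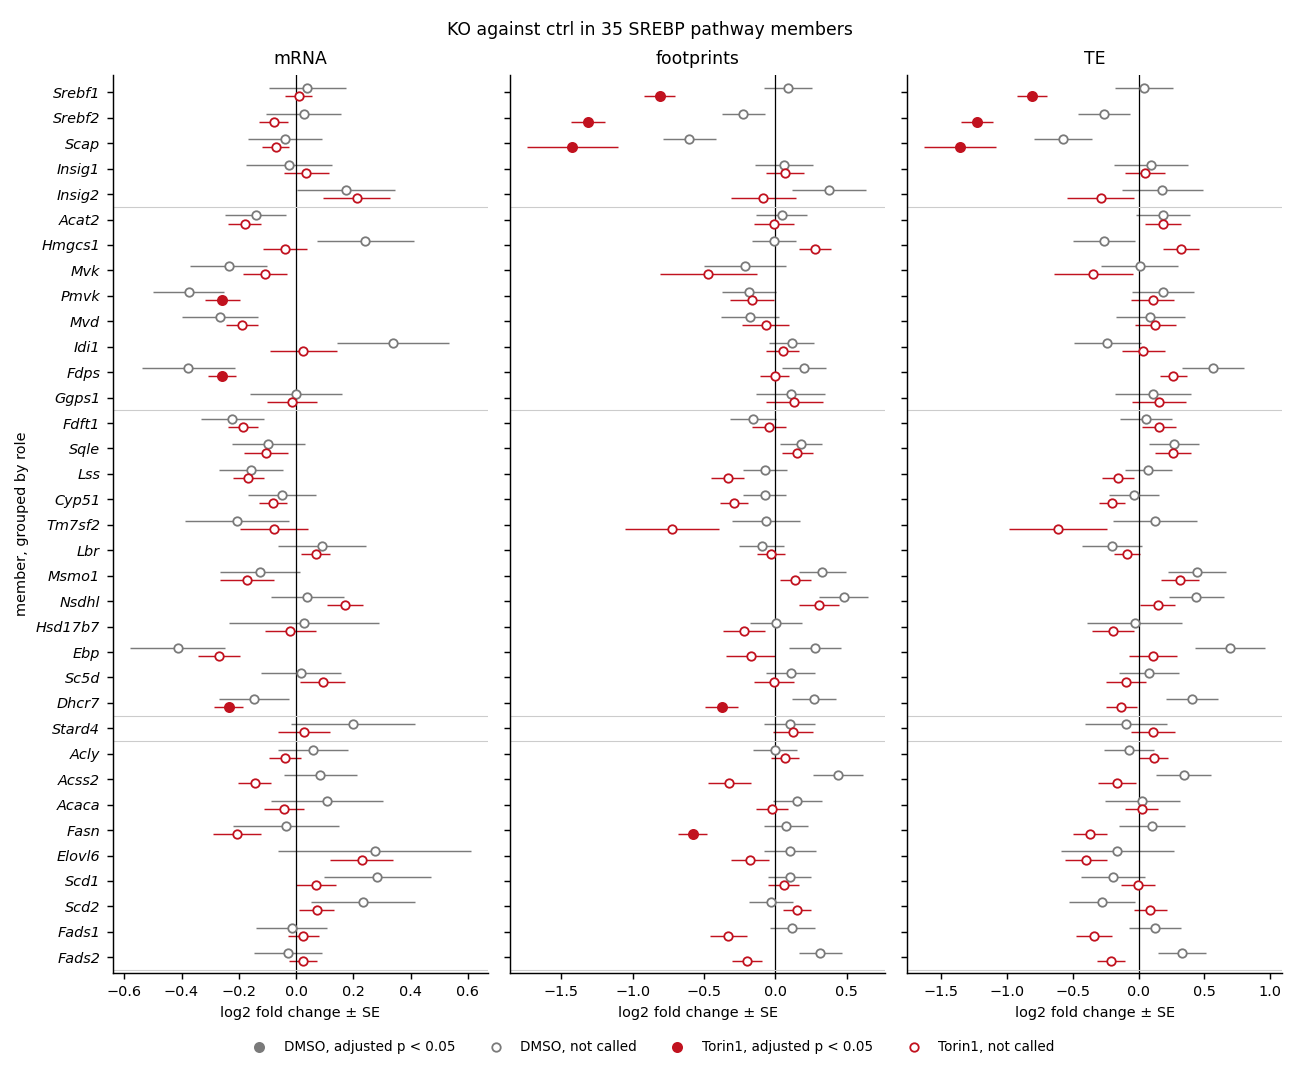
Log2 fold change of KO against ctrl for the 35 members, with mRNA, footprints and TE in separate panels, DMSO in grey and Torin1 in red, bars showing 1 SE and filled points an adjusted p under 0.05. No point is filled in DMSO, and in Torin1 the filled points are 3 for mRNA, 5 for footprints and 3 for TE.

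The contrasts above share libraries (KO Torin1 stands in both the treatment and the genotype comparison), so their values stand side by side and are not independent. Whether the footprint response to Torin1 differed between genotypes was tested directly with the genotype by treatment term over 11 ribo-seq libraries. It called 1 of 35 members (2.86%), lower, beside 0.113% of 10662 transcripts, all lower. This was Srebf2, whose footprints fell further in KO than in ctrl by -1.08 on the log2 scale (SE 0.19, 95% interval -1.47 to -0.70, adjusted p = 0.00567). Its own changes were -0.79 in ctrl and -1.90 in KO. Without KO Torin1 replicate 1 the adjusted p was 0.0605, and the estimate stayed between -1.26 and -0.96 whichever library was left out. Srebf1 gave -0.89 (SE 0.20, adjusted p = 0.0571), Fasn -0.66 (adjusted p = 0.16) and Scap -0.82 (SE 0.35, adjusted p = 0.632). With the replicate block Srebf1 (-0.85, adjusted p = 0.0284) and Fasn (-0.66, adjusted p = 0.0327) were called too, making 3 members among 35 transcripts called. Insig1 (0.03) and Insig2 (-0.46) did not pass. At an unadjusted p under 0.05 there were 8 members (22.9%) and 731 transcripts (6.86%).

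TE, the footprints of a transcript relative to its mRNA, was tested in 1 model over both kinds of library. In ctrl DMSO the TE of Scap was -1.67 on the log2 scale relative to the median of 10443 transcripts, at the 5.2 percentile, the lowest of the 35 members. That of Srebf2 was -0.46 and that of Srebf1 -0.44, at percentiles 31.6 and 32.4. Insig1 (1.02) and Insig2 (0.97) lay above the median transcript, and Idi1, the isopentenyl diphosphate isomerase, was highest of the members at 3.14. With Torin1 the TE level of Scap was -3.04 in ctrl and -4.37 in KO, at the 0.718 and 0.163 percentiles. The TE level of Srebf2 was -1.07 in ctrl and -2.30 in KO, at the 15.7 and 3.93 percentiles. Srebf1 had a level of -0.69 in ctrl and -1.51 in KO. In both Torin1 conditions Scap had the lowest level of the regulators and both Insig genes lay above the median transcript.

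**Figure D4:**
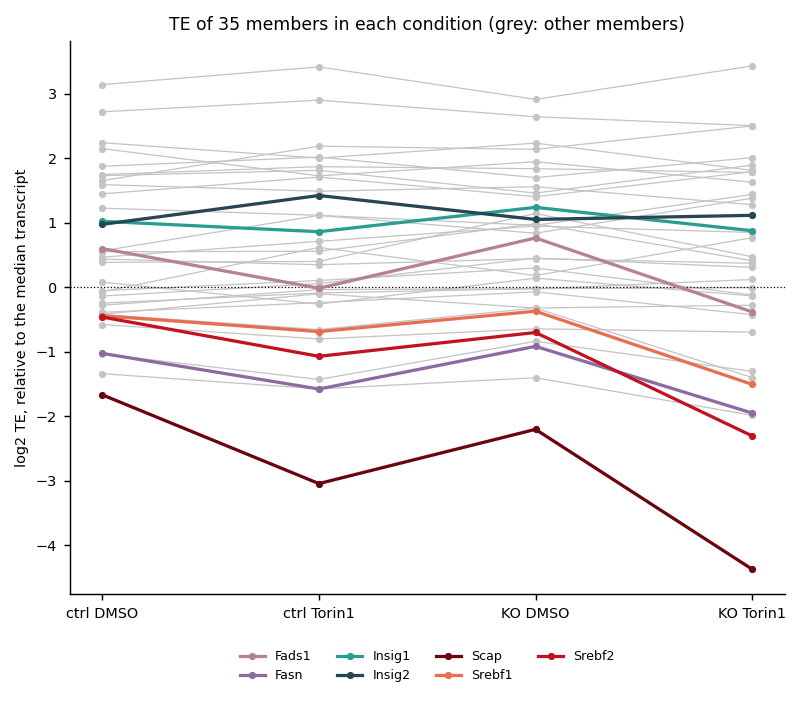
Log2 TE of the 35 members relative to the median transcript in each of the 4 conditions, 1 line per member, with 7 members coloured; the median transcript is the dotted line. Scap lies lowest in every condition, at -1.67 in ctrl DMSO and -4.37 in KO Torin1, and both Insig genes stay above 0.

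In ctrl cells Torin1 lowered the TE of 1 of 35 members (2.86%) and raised that of 0, beside 4.68% of 10433 transcripts called, 4.29% lower. This was Scap (-1.47, SE 0.23, adjusted p = 0.000284). Srebf2 gave -0.66 (adjusted p = 0.0561), Srebf1 -0.31, Insig1 -0.33 and Insig2 0.53. Between 1 and 4 members were called when each library was left out in turn, with 4 without the RNA-seq library of ctrl DMSO replicate 3.

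In KO cells the TE of 14 of 35 members (40%) fell with Torin1 and that of 4 rose, beside 28.4% of 10535 transcripts called, 17.8% lower and 10.6% higher. The largest falls were in Scap (-2.29, SE 0.24, adjusted p = 6.37e-08), Srebf2 (-1.67, SE 0.13, adjusted p = 3.02e-10), Fads1 (-1.21, SE 0.12, adjusted p = 3.59e-08) and Srebf1 (-1.20, SE 0.14, adjusted p = 2.67e-07). Fasn (-1.10), Tm7sf2 (-1.09), Ebp (-0.72), Dhcr7 (-0.63), Mvd (-0.50), Fads2 (-0.48), Insig1 (-0.42), Acss2 (-0.41), Lbr (-0.38) and Cyp51 (-0.34) also fell. Among these falls, 11 of 12 left-out libraries ended the call for Acss2, 9 that for Cyp51, 7 that for Mvd and 6 that for Insig1. For Tm7sf2 and Lbr it was 2 each, and the other falls were kept in every leave-out. Insig1, Mvd and Acss2 were not called with the CDS GC offset. Of the falls, those of Ebp, Fads2, Insig1, Mvd, Acss2, Lbr and Cyp51 were not called without TMM scaling. The 4 that rose were Sqle (0.48), Idi1 (0.47), Hmgcs1 (0.42) and Scd2 (0.37). Of 12 left-out libraries, 0 ended the call for Sqle, 5 that for Hmgcs1, 8 that for Idi1 and 9 that for Scd2 (adjusted p up to 0.0293, 0.124, 0.218 and 0.152). With the CDS GC offset Sqle (0.33, adjusted p = 0.0569), Hmgcs1 (0.23, 0.21) and Idi1 (0.17, 0.485) were not called. Idi1 was also lost with DESeq2 (adjusted p = 0.0624) and, like Scd2 (0.0503), without the CPM filter (0.0528). For Sqle and Hmgcs1, the mRNA fell while the footprints did not pass. Sqle footprints were 354, 369.5 and 379.9 CPM in KO DMSO and 381, 366 and 381 in KO Torin1. Hmgcs1 footprints were 283, 266 and 268 CPM in KO DMSO and 318, 283 and 265 in KO Torin1. Both pairs of groups overlapped. Without TMM scaling 7 members were lower and 8 higher, beside 1192 and 2700 of 10535 transcripts, with the median of all transcripts at 0.24. With the replicate block Fdft1 (-0.34) and Hsd17b7 (-0.50) were also lower. The count was 12 without the RNA-seq library of KO Torin1 replicate 2 or the ribo-seq library of KO Torin1 replicate 3.

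Between genotypes, TE in DMSO gave 0 of 35 members, beside 0% of 10478 transcripts with edgeR, and 0 members with DESeq2. At an unadjusted p under 0.05 there were 3 members (8.57%), Ebp (0.70), Scap (-0.57) and Fdps (0.57), and 429 transcripts (4.09%). In Torin1 the TE of 3 of 35 members (8.57%) was lower in KO, beside 2.85% of 10509 transcripts called, 2.26% lower and 0.59% higher. All 3 were regulators. Srebf2 (-1.23, SE 0.12, adjusted p = 8.44e-07) had the smallest p of all transcripts tested and was 2.34-fold lower. Srebf1 (-0.81, SE 0.11, adjusted p = 0.000105) was 1.76-fold lower and ranked 10 by p. Scap (-1.35, SE 0.27, adjusted p = 0.00599) was 2.56-fold lower. Insig1 (0.05), Insig2 (-0.29) and Fasn (-0.37, adjusted p = 0.127) did not pass. With the replicate block Fasn was lower (-0.36, adjusted p = 0.041) and Fdps higher (0.26, adjusted p = 0.0239), making 5 members. The genotype by treatment term for TE called 0 members and 0% of 10447 transcripts with edgeR. DESeq2 called 1 member, Srebf2 (-0.99, adjusted p = 0.0313, against -0.97 and 0.202 with edgeR). At an unadjusted p under 0.05 the edgeR term held 6 members (17.1%) and 599 transcripts (5.73%).

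Base composition and length of the transcripts moved with the footprint changes. The CDS of Srebf1 had the highest GC content of the 35 at 60.9%, with Scap at 59.0%, Srebf2 at 58.7% and Fasn at 58.5%, beside a median of 53.9% for the members and 52.7% for all transcripts. Mvk (60.1%) and Mvd (59.6%) were also high. Their footprints fell with Torin1 in KO (-0.76 and -0.72) and were not called between genotypes in Torin1. Mean footprints were 11 CPM in ctrl Torin1 and 7.67 in KO Torin1 for Mvk, and 46.7 and 44.7 for Mvd. Tm7sf2, at 57.9%, fell with Torin1 in KO (-1.24). Its means were 16.7 CPM in ctrl Torin1 and 9.41 in KO Torin1, not called either. Insig1 was similar at 58.1%, and its footprints did not pass in any comparison. The order of the footprint difference of KO against ctrl in Torin1 ran against CDS GC content across the 35 members (Spearman's rho -0.559) and across 10755 transcripts (-0.417). For Torin1 against DMSO rho was -0.629 in ctrl and -0.613 in KO over the members, beside -0.406 and -0.345 over all transcripts. These are descriptions across genes that share libraries and base composition, and genes are not independent replicates. The CDS GC offset, fitted in each library, left the KO against ctrl footprint differences in Torin1 at -1.14 for Srebf2 (adjusted p = 3.73e-09), -0.62 for Srebf1 (0.000147), -1.25 for Scap (0.0131) and -0.42 for Fasn, all still called. Dhcr7 was no longer called (-0.34, adjusted p = 0.0686). The 5′ transcript leaders, the part before the start codon, had a median length of 222 nt in the members and 172 nt in all transcripts. Those of Srebf1, Srebf2 and Scap were 61, 222 and 247 nt. For KO against ctrl footprints in Torin1, rho with leader length was 0.162 over the members and 0.145 over all transcripts, and with leader GC content -0.384 and -0.145. Spearman's coefficient with CDS length was -0.41 over the members and 0.107 over all transcripts; Srebf2, Srebf1, Scap and Fasn have a CDS of 3393, 3405, 3831 and 7515 nt, beside a median of 1206 nt for the members. The part of length in the results was not tested.

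**Figure D5:**
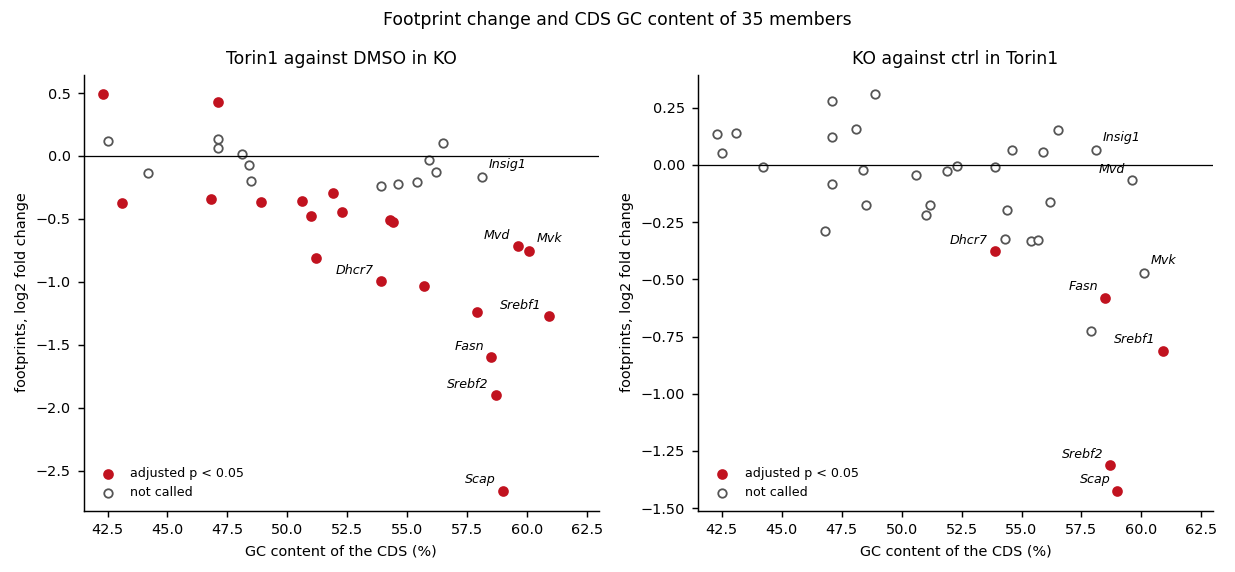
Log2 fold change in footprints against GC content of the coding sequence for the 35 members, for Torin1 against DMSO in KO and for KO against ctrl in Torin1, with red points at an adjusted p under 0.05. The lowest 2 points in both panels are Scap and Srebf2, at 59.0% and 58.7% GC, while Insig1 at 58.1% lies near 0. Mvk and Mvd, at 60.1% and 59.6%, are red for Torin1 against DMSO in KO only.

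Other genes of lipid metabolism, in 4 lists grouped by function, were compared in the same tables. Among 11 measured genes of SREBP processing and turnover, footprints of 3 fell and of 2 rose with Torin1 in KO, beside 22.1% and 18.5% of all transcripts. Among those that rose was Lpin1, a phosphatidate phosphatase (0.94, adjusted p = 2.54e-06). In ctrl 2 of these genes fell and 1 rose, which was again Lpin1 (1.30), beside 9.93% and 5.69% of all transcripts. Between genotypes in Torin1, 0 of 11 differed, beside 4.01% of transcripts lower and 2.02% higher.

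The same shares over all transcripts hold for the next 3 lists. Of 16 genes of fatty acid activation and elongation, footprints of 10 fell and of 0 rose with Torin1 in KO, led by Tecr (-1.09, adjusted p = 1.57e-09) and Hacd2 (-1.07), which work in the fatty acid elongation cycle. In ctrl 2 fell and 1 rose, and KO was lower than ctrl in Torin1 for 2 (Hsd17b12, -0.41, adjusted p = 0.00819, and Tecr, -0.34) and higher for 1. Of 9 genes of sterol transport and sensing, 4 fell in KO (Tmem97 -1.13 and Gramd1a -1.41 first) and 2 in ctrl, and 0 differed between genotypes in Torin1. Of 12 genes of other isoprenoid branches, 5 fell in KO (among them Icmt, -1.59, and Rabggtb) and 4 in ctrl, and 0 differed between genotypes in Torin1. In DMSO, KO and ctrl footprints differed for 0 genes of these 4 lists.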

How the data were processed

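N2a ctrl and KO cells were profiled by RNA-seq and ribo-seq. The authors trimmed reads with cutadapt, aligned them with HISAT2 (mm10) and Bowtie2 to canonical transcripts, assigned footprint P-sites with riboWaltz and deposited counts per transcript for pairs of conditions in 8 tables. Their fold change and p columns, and 2 TE tables, were not used. Counts were tested with edgeR 4.0.16 (R 4.3.3; TMM, quasi-likelihood, Benjamini-Hochberg over all transcripts with CPM over 1 in every library of at least 1 condition of the comparison); TE was the interaction of assay and condition. Each SE was the log2 fold change over the root of F. Groups came from the labels, and which cultures are separate is known only by passage. Libraries held 669010 to 28910907 counts over shared transcripts, and 86 to 1531 rows a table failed the filter. Levels are TMM-scaled CPM. The labels tie replicate numbers to passages; same-numbered libraries correlated at 0.0398 to 0.737 in RNA-seq and -0.0395 to 0.141 in ribo-seq (deviations from group means), and 1 RNA-seq table with doubled numbers (DMSO, both genotypes) was used by group only, its numbered fit taking the libraries from the other tables.

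Features came from GENCODE release 21 (GRCm38) and promoters from RefSeq. On simulated counts with 200 transcripts changed by 1 log2 unit, 128 were recovered for footprints and 197 for mRNA in the comparison of KO against ctrl in Torin1 (10792 and 11007 transcripts). False calls are not given here, and the simulated libraries carried no effect of passage. Alternatives were library sizes without TMM, DESeq2 1.42.0, no CPM filter, the replicate block, leaving out each library and an offset for CDS GC content (added after seeing the data). Members and lists were chosen with earlier results of these data known. All called members and the 5 regulators were named, with library values for up to 8 called members a comparison (smallest adjusted p first); where none was called, up to 3 with the smallest p were given. p-values and intervals measure only the spread between these libraries. Some results for single genes are not reported here.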

Additional observations from a re-analysis of the deposited data

Results flagged for a closer look

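The Torin1 response of Srebf2 footprints differed between genotypes by a test of the difference itself: the genotype by treatment term was -1.08 on the log2 scale (SE 0.19, adjusted p = 0.00567, edgeR), with changes of -0.79 in ctrl and -1.90 in KO. All 3 KO Torin1 libraries lay under all 3 ctrl Torin1 libraries. In DMSO the KO libraries (377.5 to 397.2 CPM) also lay under the ctrl libraries (403.1 to 494.5 CPM), closer together, and the difference was not called. The Srebf2 mRNA term was -0.10 (adjusted p = 0.999). The TE term was -0.97 and was not called (adjusted p = 0.202). Without KO Torin1 replicate 1 the footprint term was no longer called (adjusted p = 0.0605). Groups of 2 or 3 libraries were too small to be screened for single samples that stand apart.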

How the results depend on the processing

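Of 66 calls of single members, 31 were kept under every alternative and every left-out library, 37 under every alternative and 36 under every left-out library, and 0 changed direction. The counts 31 and 37 include Scap footprints, KO against ctrl in Torin1, which had no adjusted p with DESeq2 and was not called by it. Library sizes without TMM scaling gave 0 members for mRNA, Torin1 in ctrl. DESeq2 gave 2 members for mRNA, Torin1 in ctrl, 5 for mRNA, KO against ctrl in Torin1, 3 for footprints, Torin1 in ctrl, 3 for footprints, KO against ctrl in Torin1 (Scap had no adjusted p there), 3 for the footprint interaction, 2 for TE, Torin1 in ctrl and 1 for the TE interaction. In the same order DESeq2 called 723, 342, 947, 422, 39, 540 and 16 of all transcripts. The main fit called 299, 216, 1670, 651, 12, 488 and 0. The replicate block gave 2 for mRNA, Torin1 in ctrl, 3 (DMSO) and 9 (Torin1) for mRNA, KO against ctrl, 3 for the footprint interaction and 5 for TE, KO against ctrl in Torin1. Over all transcripts it called 1328, 866, 1041, 35 and 541 in that order, against 299, 2, 216, 12 and 299 in the main fit. Beside the calls given with these results, the block changed no other call of a member. The CDS GC offset, alone and then with the replicate block (both chosen after seeing the data), gave 2 and 3 for mRNA, Torin1 in ctrl and 2 and 3 for the footprint interaction. Over all transcripts these were 524 and 1173, and 17 and 37. The combination gave 13 for mRNA, Torin1 in KO, 7 (DMSO) and 11 (Torin1) for mRNA, KO against ctrl, and 8 for footprints, Torin1 in ctrl. Over all transcripts it called 2195, 683, 1054 and 1453 in that order, against 1097, 2, 216 and 1670 in the main fit. The offset made fewer TE calls for Torin1 in KO (13 against 18 members, beside 2865 against 2990 transcripts).

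Leaving out each library in turn gave, for mRNA, 0 to 3 members for Torin1 in ctrl, 4 to 13 for Torin1 in KO and 0 to 3 for KO against ctrl in Torin1. For footprints it gave 3 to 8 for Torin1 in ctrl, 14 to 21 for Torin1 in KO, 4 to 6 for KO against ctrl in Torin1 and 0 to 2 for the interaction. For TE it gave 1 to 4 for Torin1 in ctrl, 12 to 19 for Torin1 in KO and 3 to 4 for KO against ctrl in Torin1, and elsewhere 0 to 0. The cause of these shifts was not tested. Footprint comparisons with ctrl DMSO rest on 2 libraries, 1 of them with 669010 footprints, and Scap in KO Torin1 on 11 to 21 footprints a library, which limits their precision.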
